A study of Mus musculus with 10 samples.

Results

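Peaks were described at 10 marker genes of activated fibroblasts and of the epicardium in macrophage chromatin: Wt1, Postn, Acta2, Tcf21, Mfap5, Pdgfra, Dcn, Lum, Dpt and Thy1. These 10 are among 21887 protein-coding genes on chromosomes 1 to 19, X and Y. They were chosen by name as markers of cells other than macrophages, with the called peaks of these same libraries already known, so their peaks are given as a description and carry no test. For each gene every called peak was taken over its annotated extent and 5 kb on either side (mm10).

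The peaks come from 6 CUT&Tag libraries of mouse macrophages, a method in which an antibody directs a transposase to cut and tag the DNA around its target. An antibody against NPM1, nucleophosmin, a histone-binding nucleolar protein, was used on 4 WT groups. These were cardiac macrophages on day 3 after a sham operation, cardiac macrophages on day 3 after myocardial infarction, untreated bone marrow-derived macrophages (BMDM), and BMDM given 20 ng/ml IL-4 for 12 hours. To obtain BMDM, marrow cells had been kept for 7 days in medium with M-CSF at 50 ng/ml. An antibody against H3K4me3, a histone mark of active and poised promoters, was used on cardiac macrophages on day 3 after infarction from WT and from Npm1-cKO mice, labelled NPM1 knockout. The promoter that drives the deletion, the deleted exons, the sorting of the cardiac cells and the number of pooled animals were not found in the labels. Each group is 1 library, so no difference between groups has a replicate check. The other 4 libraries of the series were not analysed here.

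Fibroblasts of the heart wall descend largely from the epicardium, the outer cell layer that expresses the transcription factors Wt1 and Tcf21 in development. After infarction resident fibroblasts that carry the receptor Pdgfra divide, and many become myofibroblasts that contract through Acta2 and lay down matrix with periostin and small proteoglycans. Macrophages share the scar with these cells, and the genes listed here serve as markers of the fibroblast side, although Thy1 also marks T cells.

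The lists held between 52977 and 104514 peaks, and the genome-wide background recovered from the peak values was 1.29 reads for sham NPM1, 3.03 for infarct NPM1, 1.31 for untreated BMDM, 4.18 for IL-4 BMDM, 2.92 for WT H3K4me3 and 2.49 for knockout H3K4me3. The deeper NPM1 library of each pair thus had more than 1 further read of background per position. The H3K4me3 lists differed in strength more than in length, with a median −log10 q per peak of 2.37 in WT and 5.80 in knockout. At Npm1 itself a gene-end peak was called in the infarct NPM1, IL-4 NPM1, WT H3K4me3 and knockout H3K4me3 lists, and H3K4me3 at its promoter does not check a deletion. Of 23 macrophage identity genes such as Csf1r and Cd68, 18 had a gene-end H3K4me3 peak in WT and 21 in knockout, beside 57.1% and 61.8% of all genes. In the NPM1 lists the same count was 4 in sham, 21 in infarct, 2 in untreated BMDM and 20 in IL-4 BMDM. The shares of all genes were 10.9%, 50.6%, 6.71% and 51.2%. With so few macrophage genes, the peaks of the 2 shallow lists do not show the labelled cell type. Throughout, a gene-end peak is one that overlaps a window of 1 kb to each side of an annotated end of the gene, and a rank is the position of a peak in its own list by the deposited −log10 q, as percent from the top.

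Peaks were sparse over the marker genes in most lists. The median of bases covered by peaks over a gene and 5 kb was 0 in sham, 285 in infarct and 324 in IL-4 BMDM. It was 109.5 in WT H3K4me3 and 549.5 in knockout. Over all genes these medians were 200, 784, 878, 956 and 1482. In untreated BMDM the median was 0 for the marker genes and for all genes. In all, 59 peaks lay over the 10 genes and their flanks: 4 in sham NPM1, 9 in infarct NPM1, 5 in untreated BMDM, 10 in IL-4 BMDM, 9 in WT H3K4me3 and 22 in knockout H3K4me3. Their widths ran from 200 to 960 bp with a median of 306 bp, and 200 bp was also the smallest width in every list. Median widths per list were 224 bp to 360 bp at the marker genes, beside 233 bp to 438 bp over all peaks. By position, 39 of the 59 lay wholly inside a gene, 17 outside it and 3 over an annotated end. The genes themselves span 2.88 kb (Tcf21) to 47.1 kb (Wt1), with a median of 21.7 kb beside 17.2 kb over all genes.

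**Figure D1:**
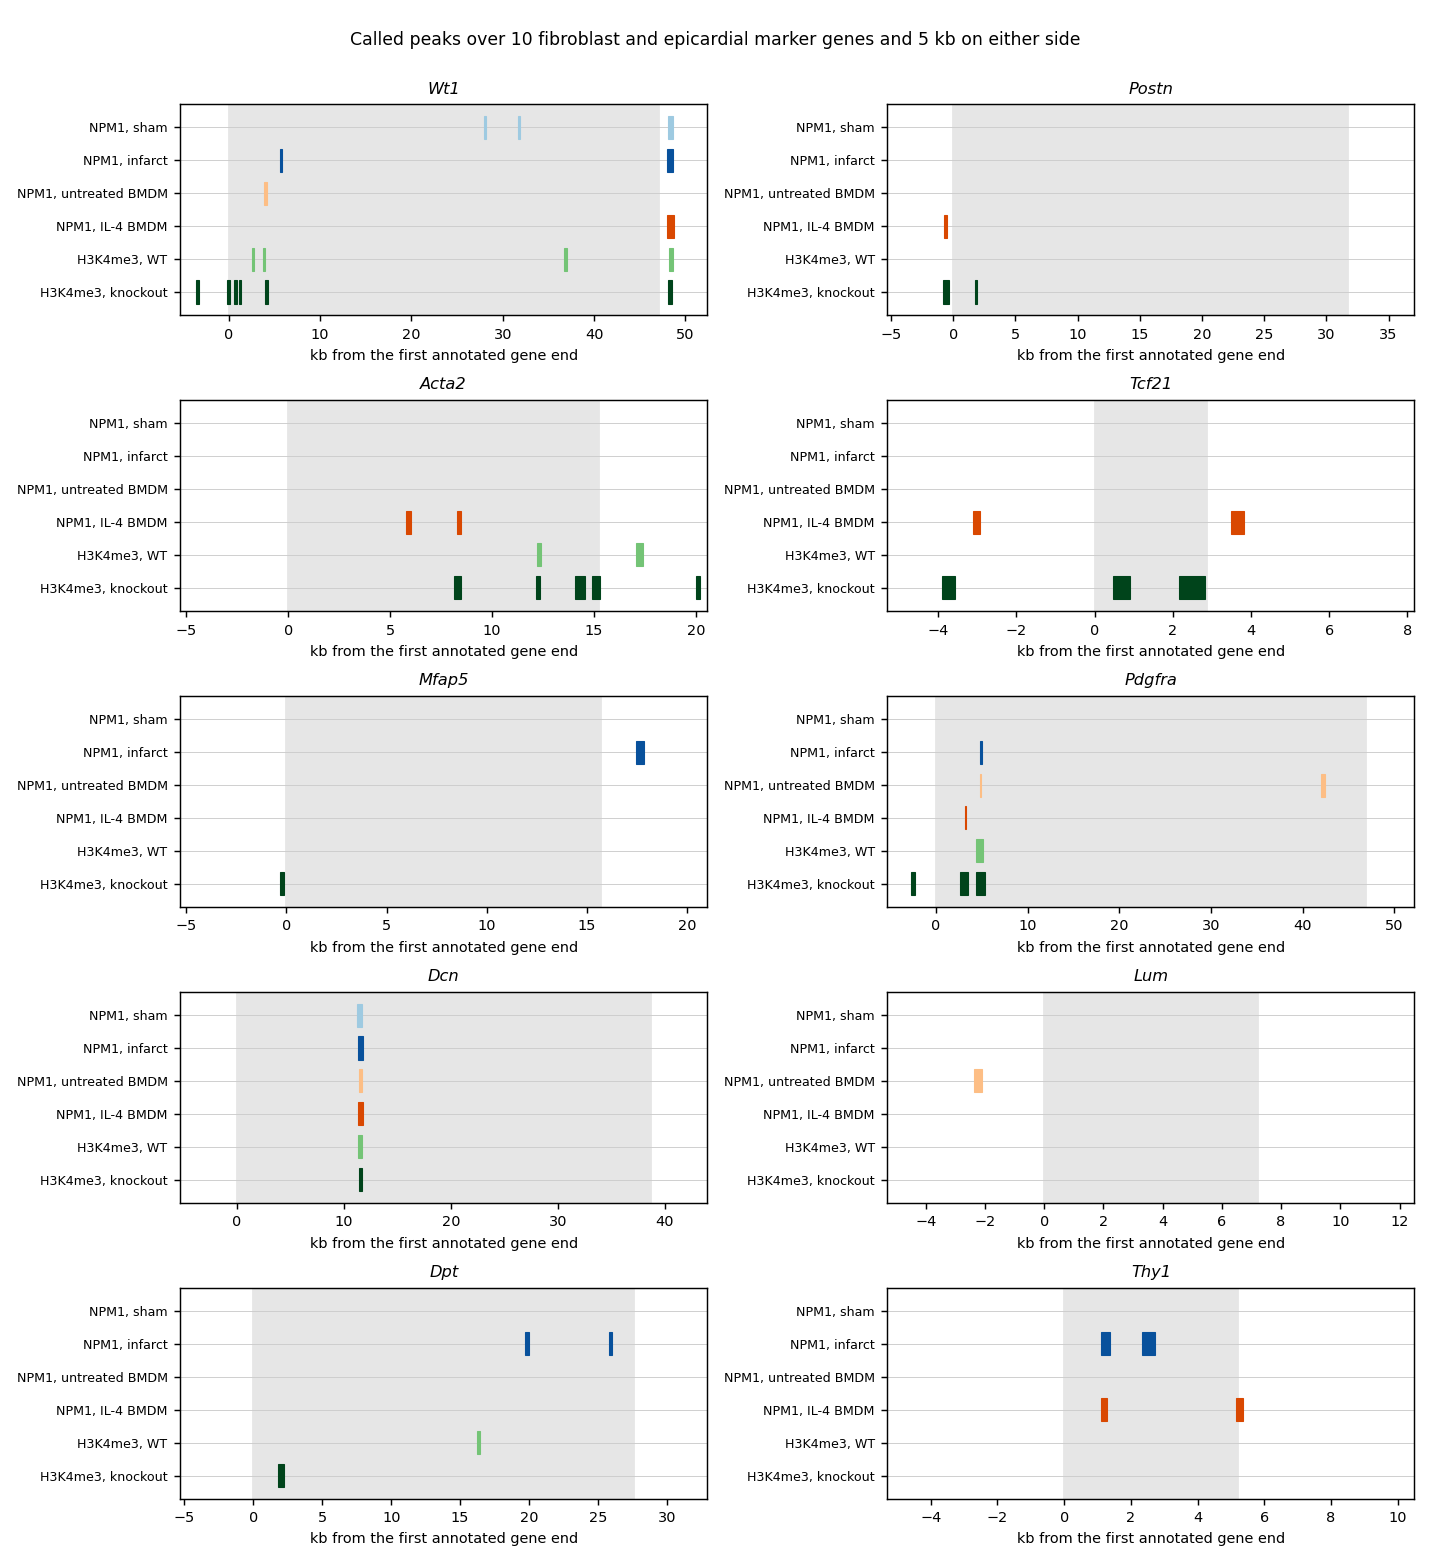
Map of all 59 called peaks over the 10 marker genes, 1 panel a gene. The x axis is kb from the first annotated gene end, each row is a library, the bars are peaks drawn to scale, and the shading marks the gene. The knockout H3K4me3 row holds 22 peaks and the WT row 9, and a bar inside Dcn stands in all 6 rows.

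At the gene ends the H3K4me3 lists gave 0 of 10 marker genes in WT and 5 of 10 in knockout. Over all genes the shares were 57.1% in WT and 61.8% in knockout, so the marker genes lay below the background in WT and near it in knockout. Those 5 were Wt1, Postn, Acta2, Tcf21 and Mfap5. A gene-end peak in knockout and not in WT was held by 8.37% of all genes, and one in WT and not in knockout by 3.73%, with 0 of the 10 in the latter direction. Of the genes with no WT gene-end peak, 19.5% had one in knockout. With a peak anywhere over the extent or within 5 kb the marker counts were 5 in WT and 8 in knockout, beside 77.1% and 72.2% of all genes. In such bulk libraries more cells with a mark and more of the mark per cell cannot be told apart, and genotype cannot be told apart from the library.

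The NPM1 lists held few gene-end peaks at these genes. No marker gene had one in sham or in untreated BMDM, where 10.9% and 6.71% of all genes had one. In the infarct list the count was 1 of 10, Wt1, beside 50.6% of all genes. In IL-4 BMDM it was 4 of 10, Wt1, Postn, Tcf21 and Thy1, beside 51.2%. Infarct and not sham gave that 1 gene where the background was 43.4%, and IL-4 and not untreated gave those 4 where it was 46.5%. In the opposite directions, 3.75% and 1.98% of all genes, there was none. Peaks anywhere over the extent and 5 kb were called at 2 marker genes in sham (background 52.4%), 6 in infarct (74.9%), 4 in untreated BMDM (36.2%) and 7 in IL-4 BMDM (78.3%). The 4 in IL-4 BMDM, the deepest of these libraries, against 1 in infarct became 1 against 1 with lists of equal length or a −log10 q of 5 or more, and 4 against 4 with a 2.5 kb window.

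Where marker genes had a gene-end peak, it was mostly weak beside the gene-end peaks of all genes in its list. In the knockout H3K4me3 list the strongest gene-end peak of the 5 marker genes had a median −log10 q of 6.50, a median width of 493 bp and a median rank of 48.1% from the top. Over the 13517 genes with such a peak the medians were 86.6, 1361 bp and 12.7%. Over all peaks of that list, at gene ends or not, the median −log10 q was 5.80 and the median width 438 bp. The 5 marker peaks ranked between 27.3% and 94.5%, so all of them lay below the median rank of gene-end peaks in that list. With a −log10 q of 5 or more required, 3 of 10 marker genes had a gene-end peak in knockout beside 57.0% of all genes, and 0 in WT beside 42.8%. At that threshold the NPM1 lists gave Wt1 alone, in infarct (27.9% of all genes) and in IL-4 BMDM (29.4%).

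**Figure D2:**
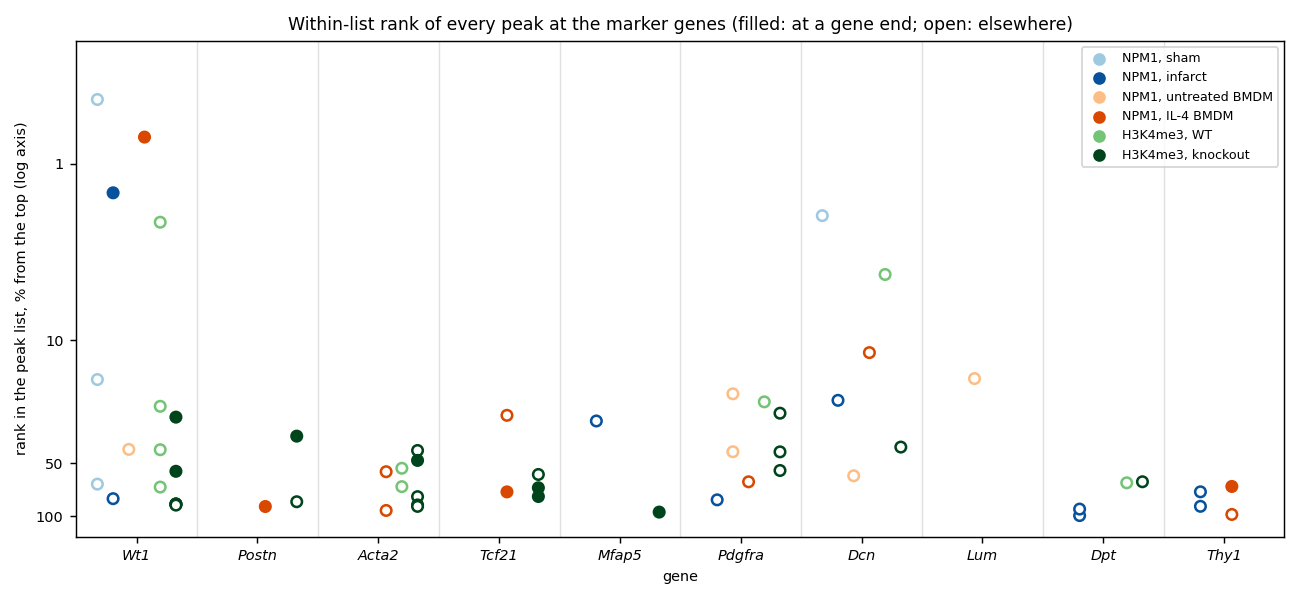
Within-list rank of every peak at the 10 marker genes, as percent from the top of its list on a log axis with the strongest at the top. Colours are libraries, filled points lie at a gene end and open points elsewhere, and only the peaks past the end of Wt1 and inside Dcn reach the top 5%.

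Among the epicardial transcription factors, Wt1 (chr2:105126529-105173614), a zinc-finger protein of the epicardium, kidney and gonads, held the most peaks. The knockout H3K4me3 list had a 340 bp peak across its first annotated end, 16 reads at the summit over a local background of 3.34, with a 3.92-fold enrichment, a −log10 q of 4.85 and a rank of 55.4%. Further knockout peaks of 287 bp and 260 bp began 590 bp and 1115 bp inside, each with 12 reads and a −log10 q of 2.12. The WT list had no peak within 1 kb of that end, and its nearest were 200 bp and 309 bp wide at 2547 bp and 3729 bp inside. The long noncoding RNA gene Wt1os ends 19 bp before Wt1, so the peak across the end lies at both annotated genes.

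A stronger peak lay past the last annotated end of Wt1, at chr2:105174532-105175227 over the lists together. It was called in every list but untreated BMDM: 15.4-fold with 61 reads in sham NPM1, 9.91-fold with 43 in infarct, 11.7-fold with 68 in IL-4 BMDM, 8.85-fold with 39 in WT H3K4me3 and 9.74-fold with 33 in knockout H3K4me3. It ranked 0.431% from the top in sham, 1.46% in infarct, 0.704% in IL-4 BMDM and 2.14% in WT, and 27.3% in knockout. The same place was thus among the strongest peaks of 4 lists made with both antibodies. Its near edge lay 1008 bp from the gene end in sham and 1068 bp in WT, but 943 bp in infarct, 918 bp in IL-4 BMDM and 988 bp in knockout. The 1 kb limit therefore counted it in 3 lists and passed over it in the other 2. The single gene-end count in infarct NPM1 rests on this edge, and so does the count of Wt1 in IL-4 BMDM. So does the place of Wt1 among the knockout gene-end peaks with a −log10 q of 5 or more, and its absence there in WT. The −log10 q of this peak was 23.4 in WT and 23.5 in knockout. By overlap, 2.25% of all 244074 regions were shared by exactly 5 lists.

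Tcf21 (chr10:22817263-22820143), a basic helix-loop-helix factor of fibroblast precursors, had H3K4me3 peaks in knockout and none in WT. A 667 bp peak ended 47 bp from its start site, on the minus strand, with 11 summit reads, 3.26-fold enrichment, a −log10 q of 2.54 and a rank of 77.1%. A 417 bp peak lay 482 bp inside the other end with a −log10 q of 3.14, and a 327 bp peak 3578 bp beyond that end had 4.25. In IL-4 BMDM an NPM1 peak of 342 bp lay 598 bp upstream of the start site with 13 reads and a −log10 q of 1.66. A stronger IL-4 BMDM peak of 202 bp lay 2920 bp beyond the other end, with 18 reads, a −log10 q of 4.32 and a rank of 26.7%. The nearest WT H3K4me3 peak was 13648 bp from the start. The noncoding gene Gm10824 spans the whole of Tcf21, and reads cannot be assigned to either gene.

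Of the myofibroblast genes, Postn (chr3:54359267-54391041), which encodes the matrix protein periostin, had the highest −log10 q at a gene end apart from the peak past Wt1. This knockout H3K4me3 peak of 493 bp lay 355 bp before the first of 2 annotated start sites, with 23 summit reads over 2.49, 6.88-fold enrichment, a −log10 q of 13.0 and a rank of 35.0%. A second knockout peak of 200 bp lay over the other start site, with 10 reads and a 3.15-fold enrichment. The noncoding gene Gm31095 lies within Postn and has an annotated end under that 200 bp peak, so the peak lies at both genes. The WT list had nothing within 5 kb, and its nearest peak was 12528 bp from the first start. An IL-4 BMDM NPM1 peak of 245 bp lay within the span of the larger knockout peak, with 12 reads, a 2.51-fold enrichment and a deposited −log10 q of 1.23, which is short of a q of 0.05. The other 3 NPM1 lists had no peak at Postn.

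Acta2 (chr19:34240336-34255585), smooth muscle actin, had 5 H3K4me3 peaks in knockout and 2 in WT. In knockout a 364 bp peak lay over the start site and covered 297 of the 300 bases of the promoter window, with 10 reads, 3.04-fold enrichment and a −log10 q of 1.99. A 510 bp peak began 469 bp downstream of the start with 16 reads, 4.80-fold enrichment and a −log10 q of 6.50, and a 326 bp peak 6588 bp downstream had a −log10 q of 8.34. The WT peaks, of 200 bp and 343 bp, lay 2653 bp and 2034 bp from the start, each with a rank between 53.3% and 67.7%. The first of them overlapped a knockout peak of 223 bp, so part of the Acta2 pattern was present in both genotypes. The WT peak of 343 bp lay inside the noncoding gene Gm31355, which lies 1051 bp from Acta2. NPM1 peaks over Acta2 were called in IL-4 BMDM only, 2 of them, the stronger with a −log10 q of 2.44. At its other end Acta2 lies 3 bp from Stambpl1, a deubiquitinase gene, and neither of the gene-end peaks was at that end.

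The receptor gene Pdgfra (chr5:75151322-75198206), a surface marker of resident fibroblasts, had no gene-end peak in any list and yet the strongest H3K4me3 signal of the 10 by summit reads. In knockout a 960 bp peak, the widest of all 59, began 3454 bp downstream of the start site with 59 reads over a local background of 8.78, 6.13-fold enrichment, a −log10 q of 26.5 and a rank of 26.0%. An 809 bp peak at 1740 bp from the start had 35 reads over 9.40 and a −log10 q of 8.24. In WT a 744 bp peak stood at the place of the larger one, 3451 bp from the start, with 18 reads over 3.52, 4.20-fold enrichment, a −log10 q of 5.26 and a rank of 22.4%. Both genotypes thus had a peak at this internal place, at similar ranks in their lists. NPM1 peaks of 200 bp in infarct and in untreated BMDM lay there too, with 10 and 8 summit reads.

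Thy1 (chr9:44043384-44048579), a GPI-anchored surface protein of fibroblasts and T cells, had no H3K4me3 peak in either genotype. The infarct NPM1 list had peaks of 244 bp and 377 bp inside it, ranked 87.6% and 72.5%. IL-4 BMDM had a 200 bp peak overlapping the first of these and a 203 bp peak over the last annotated end, with 14 reads, 2.82-fold enrichment and a −log10 q of 2.02. All 4 of the Thy1 peaks ranked 67.6% from the top or weaker.

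Among the matrix genes, Dcn (chr10:97479500-97518163), which encodes the proteoglycan decorin, had exactly 1 peak in each of the 6 lists, always at the same place. The peaks together spanned chr10:97490744-97491311, inside the gene and 11.2 kb to 11.5 kb from its first annotated end. Fold enrichment was 9.61 in sham, 3.97 in infarct, 3.46 in untreated BMDM, 4.82 in IL-4 BMDM, 8.17 in WT H3K4me3 and 5.73 in knockout H3K4me3. Within the lists it ranked 1.97% from the top in sham, 21.9% in infarct, 58.8% in untreated BMDM, 11.8% in IL-4 BMDM, 4.24% in WT and 40.4% in knockout. Regions called in all 6 lists were 2108 of 244074, or 0.864%. Dcn was also the only marker gene with fewer H3K4me3-covered bases in knockout (256) than in WT (400).

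The remaining matrix genes had little. Mfap5 (chr6:122513584-122529290), a microfibril-associated glycoprotein, had a knockout H3K4me3 peak of 225 bp that lay 102 bp before its first end, with 9 reads, a −log10 q of 1.38 and a rank of 94.5%, close to the bottom of the list. Its only other peak was in infarct NPM1, 370 bp wide and 1763 bp past the last end. Dpt (chr1:164796663-164824274), dermatopontin, had a knockout H3K4me3 peak of 406 bp at 1792 bp from its start site with 12 reads and a −log10 q of 3.52, and a WT peak of 219 bp at 16239 bp with 11 reads and 1.81. The noncoding gene Gm32569 overlaps its start. Infarct NPM1 peaks of 303 bp and 200 bp lay inside Dpt, with a −log10 q of 0.369 and 0.715. Lum (chr10:97565501-97572703), the proteoglycan lumican, had a single peak, in untreated BMDM only, 268 bp wide and 2109 bp before its first end.

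Over the 6 lists the marker genes fell into 5 patterns of gene-end peaks, each shared with other genes. Acta2 and Mfap5 had a gene-end peak in knockout H3K4me3 alone, as did 967 genes (4.42%). Among them were the collagen gene Col1a2, the inhibitor gene Timp1, the epicardial genes Tbx18 and Bnc1, and the developmental regulators Olig2 and Pax3. Postn and Tcf21 had one in IL-4 NPM1 and knockout H3K4me3, a pattern of 206 genes (0.941%) that included Islr, Pdgfrb and Tek. Wt1, with infarct NPM1 added, shared its pattern with 249 genes (1.14%), among them Mmp2, Comp, Cthrc1, Cx3cr1 and Cdh5. The NPM1 part of the Wt1 pattern rests on the 1 kb limit at the peak past its last end. Pdgfra, Dcn, Lum and Dpt had no gene-end peak in any list, as was the case for 26.2% of all genes. Thy1 had one in IL-4 NPM1 alone (2.01% of genes), as had Cd3e and Cd2 of T cells, Ins2, Ttr and Myh7.

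The H3K4me3-covered bases over each gene and 5 kb gave the same order of genotypes at most marker genes. More bases were covered in knockout than in WT at 7 of 10, fewer at Dcn, and none in either list at Lum and Thy1, with a median difference of 459 bp. Over all genes knockout had more at 62.8%, with a median difference of 401 bp, so the marker genes lay close to the whole. The largest totals in knockout were 2211 bp at Pdgfra, 2027 bp at Wt1 and 1629 bp at Acta2, beside 744 bp, 1243 bp and 543 bp in WT.

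Promoter sequences were available for 5 of the marker genes and 6 start sites from the RefSeq promoter table (GRCm38.p6), each from 250 bases before to 50 bases after the start. All but that of Pdgfra are shown, because the knockout H3K4me3 list marked some of these starts and not others, and WT none within 1 kb. The Pdgfra start (window chr5:75152001-75152300) had no knockout peak within 1 kb, as was also the case for Dpt. Every promoter was poor in CpG, with 4 to 8 CpG dinucleotides and an observed/expected ratio of 0.226 (Dpt) to 0.378 (Tcf21), where the median of 21263 promoters was 13 and 0.567. Capitals mark CG dinucleotides, TATAAA and matches to the CArG box, the element of serum response factor, with 1 C or G allowed in its A/T core. The coordinates are Acta2 chr19:34255324-34255623 on the minus strand, Postn chr3:54359017-54359316 and chr3:54360857-54361156 on the plus strand, Tcf21 chr10:22820094-22820393 on the minus strand, and Dpt chr1:164796413-164796712 on the plus strand.
Acta2 (knockout peak over the start): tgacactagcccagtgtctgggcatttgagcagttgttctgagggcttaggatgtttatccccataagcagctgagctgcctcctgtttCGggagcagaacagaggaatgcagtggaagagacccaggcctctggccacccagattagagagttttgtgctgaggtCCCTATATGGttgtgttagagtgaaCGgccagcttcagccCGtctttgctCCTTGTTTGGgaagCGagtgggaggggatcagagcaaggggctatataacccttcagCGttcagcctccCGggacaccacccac
Postn, first start (knockout peak nearby): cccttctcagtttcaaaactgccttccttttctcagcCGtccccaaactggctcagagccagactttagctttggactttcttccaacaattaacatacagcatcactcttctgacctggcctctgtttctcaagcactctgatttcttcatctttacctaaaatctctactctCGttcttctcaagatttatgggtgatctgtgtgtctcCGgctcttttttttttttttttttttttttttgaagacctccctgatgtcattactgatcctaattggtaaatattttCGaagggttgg
Postn, second start (knockout peak over the start): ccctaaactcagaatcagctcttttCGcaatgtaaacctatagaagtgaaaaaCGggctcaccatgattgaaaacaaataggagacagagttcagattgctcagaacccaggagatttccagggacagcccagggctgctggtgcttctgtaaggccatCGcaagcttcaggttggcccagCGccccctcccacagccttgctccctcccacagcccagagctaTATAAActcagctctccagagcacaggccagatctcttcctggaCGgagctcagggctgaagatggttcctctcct
Tcf21 (knockout peak at its edge): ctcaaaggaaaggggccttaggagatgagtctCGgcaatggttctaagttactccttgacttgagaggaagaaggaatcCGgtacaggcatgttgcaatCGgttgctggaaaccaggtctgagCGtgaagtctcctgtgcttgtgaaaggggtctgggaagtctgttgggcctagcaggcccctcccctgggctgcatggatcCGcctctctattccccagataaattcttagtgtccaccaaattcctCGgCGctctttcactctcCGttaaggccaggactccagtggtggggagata
Dpt (no peak within 1 kb): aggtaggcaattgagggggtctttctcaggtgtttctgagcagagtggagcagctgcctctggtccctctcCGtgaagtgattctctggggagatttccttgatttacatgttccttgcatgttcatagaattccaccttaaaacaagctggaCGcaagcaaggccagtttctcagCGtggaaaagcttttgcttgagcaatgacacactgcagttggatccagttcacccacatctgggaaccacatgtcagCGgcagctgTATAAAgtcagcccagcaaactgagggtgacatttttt

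TATAAA, searched on both strands, occurred at the second Postn start, 26 bases upstream, and at Dpt, 12 bases downstream of the annotated start, and in 12.6% of all promoters. The GC box core GGGCGG was in none of the 6 windows and in 46.2% of all. The TEAD core CATTCC was in the Acta2 window only, and in 13.6% of all. Strict CArG boxes were in none of the 6 and in 1.52% of all, and with 1 C or G allowed the Acta2 window held CCCTATATGG at 84 bases and CCTTGTTTGG at 34 bases upstream of the start, where 9.58% of all promoters held such a match. This looser pattern was chosen after seeing the data. The knockout peak that covered the Acta2 window nearly whole ranked 86.0% in its list, and a link between the matches and that peak was not tested.

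Over all start sites, H3K4me3 peaks were more frequent the higher the CpG content, in both lists. At an observed/expected ratio under 0.3 (6798 start sites), 17.1% had a peak within 1 kb in WT and 18.9% in knockout. From 0.3 to under 0.6 (4328) the shares were 47.3% and 56.6%, and at 0.6 or more (10137) they were 87.0% and 93.0%. Of the marker start sites 4 were in the lowest class, where knockout had a peak at 2 (Acta2 and the second of Postn) and WT at 0. The other 2, the first of Postn and Tcf21, were in the middle class, where knockout had both and WT neither. The windows are reference sequence and were not used to choose the genes.

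**Figure D3:**
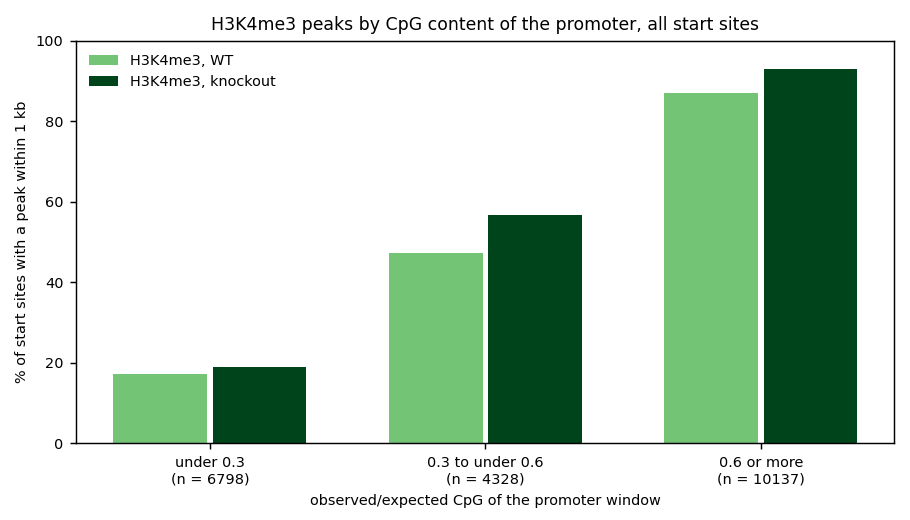
Share of all annotated start sites with an H3K4me3 peak within 1 kb, by observed/expected CpG of the 300-base promoter window, in WT and knockout. Bars start at 0 and n is the number of start sites. All 6 marker start sites are in the 2 classes below 0.6.

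Other genes of the same cells were read from lists written for the purpose. Of 30 further fibroblast genes, 14 had a gene-end H3K4me3 peak in WT and 24 in knockout, with 11 in knockout only and 1, Meox1, in WT only. The same shares of all genes were 57.1%, 61.8%, 8.37% and 3.73%. The strongest of the 11 were Comp, a matrix protein of cartilage and scar (−log10 q 39.3), the mural and fibroblast receptor gene Pdgfrb (14.2, at a peak shared with the end of Gm52351) and Sparc, a collagen-binding protein (12.7). Of the 16 with no WT gene-end peak, 11 had one in knockout, beside 5 of the 10 marker genes. In the NPM1 lists the fibroblast counts were 2 in sham, 16 in infarct, 0 in untreated BMDM and 13 in IL-4 BMDM. As shares, the 53.3% in infarct and 43.3% in IL-4 BMDM lay near the 50.6% and 51.2% of all genes. These peaks were weaker, with a median rank of 54.0% in infarct and 55.0% in IL-4 BMDM, beside 14.6% and 16.6% over all genes. With a −log10 q of 5 or more required, 3 of 30 had one in each list, beside 27.9% and 29.4% of all genes. In the H3K4me3 lists that threshold left 3 of 30 in WT and 21 of 30 in knockout, beside 42.8% and 57.0% of all genes.

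Epicardial and mural genes gave smaller counts. These stand beside 57.1% of all genes in WT, 61.8% in knockout, 8.37% in knockout only and 3.73% in WT only. Of 12 further epicardial genes 3 had a gene-end peak in WT and 5 in knockout. Tbx18 (8.65), Sema3d (4.25) and Bnc1 (0.474) were in knockout only and Krt8 in WT only. Of 12 smooth muscle and pericyte genes 3 had one in WT and 6 in knockout, with Lmod1 (20.8), Notch3 (8.49) and Abcc9 (1.55) in knockout only. Covered bases were greater in knockout at 5 of 12 in each of these lists, against 24 of 30 for the fibroblast genes and 62.8% of all genes. The same held at 18 of 19 profibrotic signalling genes, 8 of 13 endothelial genes and 6 of 12 T cell genes. It held at 6 of 20 developmental regulators, 4 of 16 cardiomyocyte genes and 3 of 16 silent tissue genes.

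Lists of other cells, other tissues and profibrotic signalling were counted in the same way. The shares of all genes beside them are again 57.1% in WT, 61.8% in knockout, 8.37% in knockout only and 3.73% in WT only. Cardiomyocyte genes had a gene-end H3K4me3 peak at 4 of 16 in WT and 2 in knockout, with Actc1 and Myl7 in WT only and none in knockout only. Endothelial genes had 6 and 7 of 13, with Cldn5, Tek and Cdh5 in knockout only, and T cell genes 5 and 5 of 12, with the same 5 in both. Developmental regulators of other organs had 3 and 5 of 20, with Pax3 and Olig2 in knockout only, and genes silent outside other tissues had 2 and 2 of 16. Of the macrophage identity genes 4 were in knockout only, Itgam, C1qb, Ctss and Cx3cr1, and Aif1 in WT only, with more covered bases in knockout at 22 of 23. Profibrotic signalling genes had 17 of 19 in each list and 16 in both, with Yap1 in knockout only and Tgfb2 in WT only. With a −log10 q of 5 or more required, they had 7 of 19 in WT and 16 of 19 in knockout. The shares of all genes at that threshold were 42.8% and 57.0%. Among genes with no WT gene-end peak, knockout had one at 19.5% over all genes, at 5 of 10 marker genes, 11 of 16 other fibroblast genes and 4 of 5 macrophage genes. The counts were 3 of 7 for endothelial genes, 3 of 9 for epicardial genes, 3 of 9 for smooth muscle and pericyte genes and 1 of 2 for profibrotic signalling genes. They were 2 of 17 for developmental regulators, 1 of 14 for silent tissue genes, 0 of 12 for cardiomyocyte genes and 0 of 7 for T cell genes. The part that other cells in the knockout library, or the higher −log10 q of its whole list, had in these counts was not tested.

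**Figure D4:**
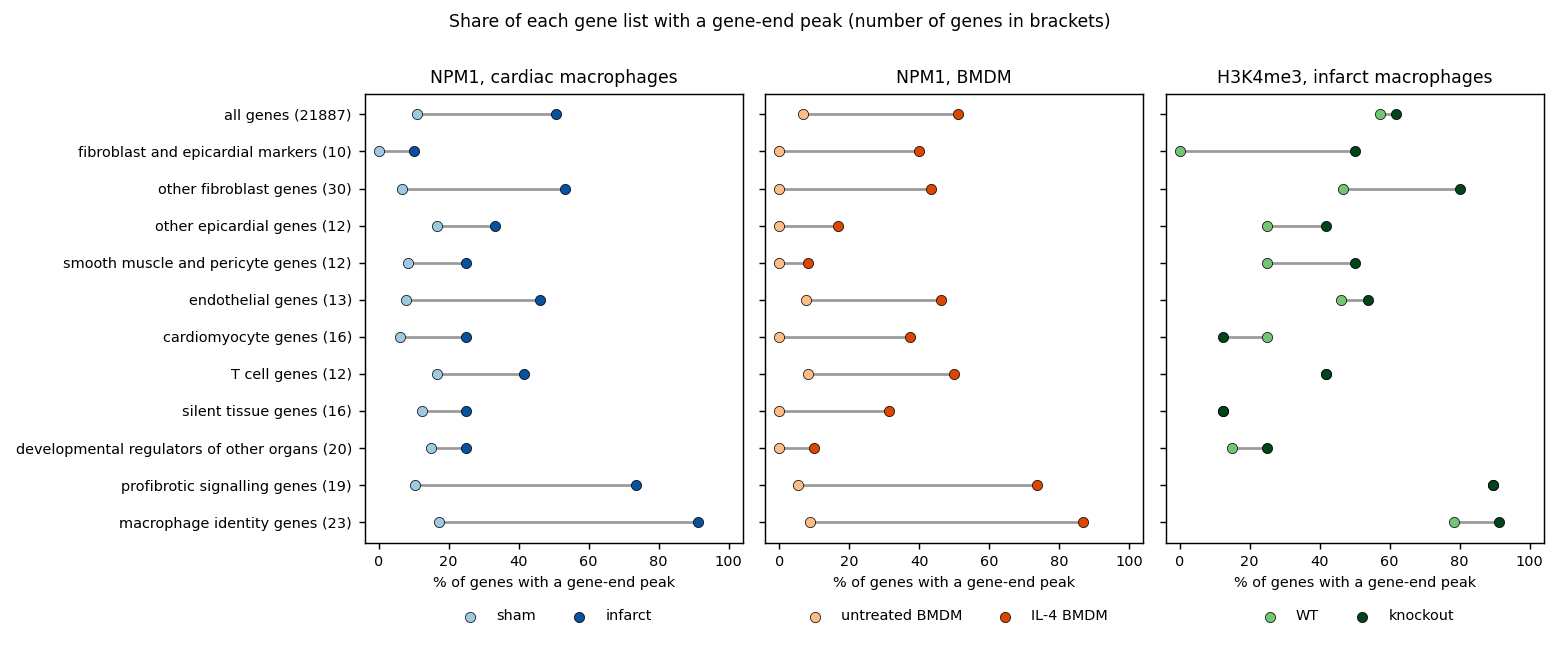
Share of each gene list with a gene-end peak, in the 3 pairs of libraries. Each row is a list with its number of genes, and the points joined by a line are the 2 libraries of a pair. The fibroblast and epicardial markers go from 0% in WT H3K4me3 to 50% in knockout, and the 30 other fibroblast genes from 46.7% to 80.0%.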

How the data were processed

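Peak lists of 6 CUT&Tag libraries, 1 per group, were used as deposited. The submitters' processing notes name MACS2 2.2.7.1, Bowtie2, deepTools and bcl2fastq 2.17 with build mm10, and settings were not given in the sources used here. The deposited score, fold enrichment (a ratio of summit pileup to local background, each with 1 added), −log10 p and −log10 q are the authors' values, and describe peaks within a list. Values of 2 lists side by side also differ with depth and enrichment. The summit pileup and background were recovered from fold and −log10 p, within 0.001 of the deposited −log10 p, for 99.2% to 100.0% of the peaks with a −log10 p under 12. The small number of summit reads limits the precision of single peaks.

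Genes were the protein-coding genes of the RefSeq GRCm38.p6 table, which gives neither strand nor exons, so exonic, intronic and UTR positions were not assigned. RefSeq promoters covered 17492 genes. A peak counted with 1 bp of overlap. The 10 genes and the 10 lists of 173 further genes were chosen with earlier results of these data known. From each list at most 3 genes per direction are named, by the highest −log10 q, all where a count is 5 or fewer, and genes sharing a marker's pattern by the closest covered bases, at most 5. No test was possible with 1 library per group. Python 3.11.15, numpy 2.4.6, pandas 2.3.3, scipy 1.17.1 and matplotlib 3.10.9 were used, and simulated peak lists with known answers were used to test the code. Alternatives were other windows, stricter peaks and equal list lengths.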

Additional observations from a re-analysis of the deposited data

How the results depend on the processing

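Of 103 counts of marker genes under other settings, 74 were within 1.5 times the reported one and 29 were not, 22 of them lower. With a 2.5 kb window gene-end peaks were at 1 gene in sham, 4 in infarct, 1 in untreated BMDM and 2 in WT H3K4me3, with 3 in infarct and not sham and 1 in untreated BMDM and not IL-4. Requiring the summit in the window gave 0 in infarct, and 0 in infarct and not sham. Start sites only, known for 5 genes, gave 0 in infarct, 2 in IL-4 BMDM and 3 in knockout, and the same 0, 2 and 3 for the differences from sham, untreated BMDM and WT. A −log10 q of 5 or more left gene-end peaks at 1 gene in IL-4 BMDM and 3 in knockout, also as differences from untreated BMDM and WT, and peaks over the extent at 1 in infarct, 0 in untreated BMDM, 2 in IL-4 BMDM, 3 in WT and 5 in knockout. Lists of 52977 peaks each left 1 gene end in IL-4 BMDM, also as the difference, and extents at 3 in infarct and 3 in IL-4 BMDM. A q of 0.05 or less left 3 extents in infarct. Allowing 1 C or G in the CArG box, chosen after seeing the data, gave 1 promoter window in place of 0. The cause was not tested for the other changes of window; stricter peaks are fewer by construction. In none of these settings did WT H3K4me3 have more gene-end marker genes than knockout. No paired analysis was possible because each group is 1 library. Where a peak is missing, none passed the caller at the depth of that library.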
